A study of Mus musculus with 6 samples.

Results

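The epithelial splicing regulators Esrp1 and Esrp2, their fellow regulator Rbfox2 and 5 genes whose exons they are known to control (Cd44, Fgfr2, Ctnnd1, Enah and Arhgef11) were examined transcript by transcript in basal cells of the mouse prostate. The members were all deposited transcript models whose position and length match 1 of these 8 genes, which gave 57 of the 63241 models in each table. They comprise 5 models of Esrp1, 2 of Esrp2, 9 of Rbfox2, 7 of Cd44, 16 of Fgfr2, 6 of Ctnnd1, 5 of Enah and 7 of Arhgef11. Of these, 28 had a value above 0 in at least 1 library and 29 were listed at 0 in every library.

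The study compared basal cells from the distal ducts with basal cells from the proximal ducts, the part nearest the urethra, in C57BL/6 mice aged 8 to 12 weeks. Each group has 3 RNA-seq libraries, numbered 1 to 3, and no allele, transgene or treatment is given for either group. Values are in FPKM, fragments scaled to transcript length and library size, a measure of level per length. Whether a library is 1 mouse or a pool is not stated. The spread that the p-values are set against may therefore be technical.

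Esrp1 and Esrp2 are RNA-binding proteins found in epithelial cells. They bind UGG-rich stretches in and around exons and switch sets of exons between an epithelial and a mesenchymal form. Rbfox2 binds GCAUG and acts on many of the same exons. The best known switch is in Fgfr2, a receptor whose IIIb form, with the epithelial exon of the third immunoglobulin domain, responds to stromal Fgf7 and Fgf10, the signals that drive growth of prostatic buds. The IIIc form carries the neighbouring exon instead and answers to other ligands. Cd44, the hyaluronan receptor, is made either in a standard form or with variable exons v1 to v10, which Esrp proteins help to include.

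The exon sequences by which these isoforms differ are given here, 5′ to 3′ on the gene's strand, from GENCODE M21 transcripts on GRCm38, the same assembly as mm10. Exon IIIb of Fgfr2 is shown because it is held by the models that carry most of the gene's level. It (chr7:130199758-130199905, minus strand, 148 bases, coding) is in capitals between the 20 bases that flank it in the spliced transcript.
Fgfr2 IIIb: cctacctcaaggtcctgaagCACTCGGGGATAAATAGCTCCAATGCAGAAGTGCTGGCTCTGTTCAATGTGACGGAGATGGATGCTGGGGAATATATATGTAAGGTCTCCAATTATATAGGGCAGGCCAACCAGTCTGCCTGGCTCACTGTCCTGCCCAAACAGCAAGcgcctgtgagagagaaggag

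The Cd44 models that were above 0 in a library all share the exon that ends at chr2:102853015 (minus strand) and differ in the coding exon joined to it. The junctions of 5 of these 6 models are shown because each one tells a single model class apart. That of the model with v1 to v10, above 0 in distal library 1 alone, is not shown. The last 24 bases of the shared exon are in lower case and the 24 bases that follow it in the mature transcript are in capitals. Exon v4 lies at chr2:102842836-102842949 and exon v10 at chr2:102831330-102831536.
Cd44 standard: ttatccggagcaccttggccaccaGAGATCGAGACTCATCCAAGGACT
Cd44 v9 to v10: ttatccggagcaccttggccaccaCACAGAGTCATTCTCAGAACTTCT
Cd44 v8 to v10: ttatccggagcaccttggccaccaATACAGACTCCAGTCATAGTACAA
Cd44 v6 to v10: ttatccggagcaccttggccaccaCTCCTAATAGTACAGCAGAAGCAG
Cd44 v4 to v10: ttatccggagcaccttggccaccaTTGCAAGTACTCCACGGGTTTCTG

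The remaining sequences are coding exons whose presence or absence separates the models of the other targets, in capitals between 20 flanking bases. The Arhgef11 exon is exon 37 of 40 (chr3:87734424-87734552, plus strand, 129 bases). Exon A of Ctnnd1 (chr2:84605184-84605246, minus strand, 63 bases) and exon 11a of Enah (chr1:181911597-181911659, minus strand, 63 bases) are cassettes. The last entry is a 12-base stretch of Esrp1 itself (chr4:11357460-11357471, minus strand), added when a downstream splice donor is used.
Arhgef11 late exon: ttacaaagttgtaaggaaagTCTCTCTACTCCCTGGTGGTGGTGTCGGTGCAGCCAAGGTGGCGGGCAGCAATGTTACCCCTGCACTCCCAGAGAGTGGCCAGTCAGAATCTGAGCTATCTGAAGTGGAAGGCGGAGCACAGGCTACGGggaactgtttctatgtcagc
Ctnnd1 exon A: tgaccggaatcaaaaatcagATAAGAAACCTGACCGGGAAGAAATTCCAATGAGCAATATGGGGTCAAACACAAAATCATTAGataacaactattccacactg
Enah exon 11a: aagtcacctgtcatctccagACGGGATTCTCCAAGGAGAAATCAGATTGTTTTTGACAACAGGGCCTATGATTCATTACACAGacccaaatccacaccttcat
Esrp1 donor stretch: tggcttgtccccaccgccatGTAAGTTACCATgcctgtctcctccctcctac

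The letters TGGTGG, searched on the gene's strand only, as printed, occurred at 2 places in the Arhgef11 exon, from bases 14 and 17, which overlap each other. They are in 8.08% of the 1399 reference exons of that length. The 3 other exons printed, IIIb of Fgfr2, exon A of Ctnnd1 and exon 11a of Enah, hold no match. This is a description of the letters, not of binding.

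None of the 8 genes passed the test at gene level, where a gene's level is the sum over its transcripts (limma, adjusted p under 0.05). Over all genes, 720 of 10255 were called, 7.02%, of which 4.52% of genes were higher and 2.5% lower in proximal cells. At an unadjusted p under 0.05 the count was 3 of the 8 (Esrp1, Esrp2 and Cd44), beside 24% of all genes. The groups did not overlap for 4 of the 8, which were Esrp2, Rbfox2 and Cd44 with the higher values in proximal cells and Esrp1 with the lower. Over all genes the groups did not overlap for 28.8%, with 15.8% higher and 13% lower in proximal cells. The median difference of the 8 was 0.15 on the log2(FPKM + 1) scale, against -0.010 over all genes. In such sorted populations, fewer cells of a type and less RNA per cell cannot be told apart.

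Esrp1 lay at 10.5, 12.2 and 12.1 FPKM in distal cells, against 9.77, 9.85 and 8.90 FPKM in proximal cells. Each proximal library was below each distal library, though by little. The difference was -0.26 ± 0.11 (SE) on the log2(FPKM + 1) scale, which was not called (adjusted p = 0.205, limma). Esrp2 went the other way, with 22.6, 21.8 and 22.6 FPKM in distal cells and 26.5, 29.0 and 31.2 FPKM in proximal cells. The difference was 0.36 ± 0.10 (SE), with an adjusted p of 0.0761. Without proximal library 1 the adjusted p for Esrp2 was 0.0449, and in the other 5 fits with 1 library left out it ran from 0.0829 to 0.254.

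Esrp2 was thus the more abundant paralogue per length in every library. Its level divided by that of Esrp1 was 2.14, 1.79 and 1.87 in distal cells and 2.72, 2.95 and 3.50 in proximal cells. The groups did not overlap (two-sided exact permutation test, p = 0.1, the smallest that 3 against 3 libraries allow). This had to follow, because Esrp2 was higher and Esrp1 lower in every proximal library, so it is not a separate result. Neither this ratio nor the sum below was among the planned comparisons. The sum of both paralogues averaged 33.9 ± 0.80 FPKM distally and 38.4 ± 1.9 FPKM proximally (SD, n = 3), again with no overlap and p = 0.1 by the same exact test.

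**Figure D1:**
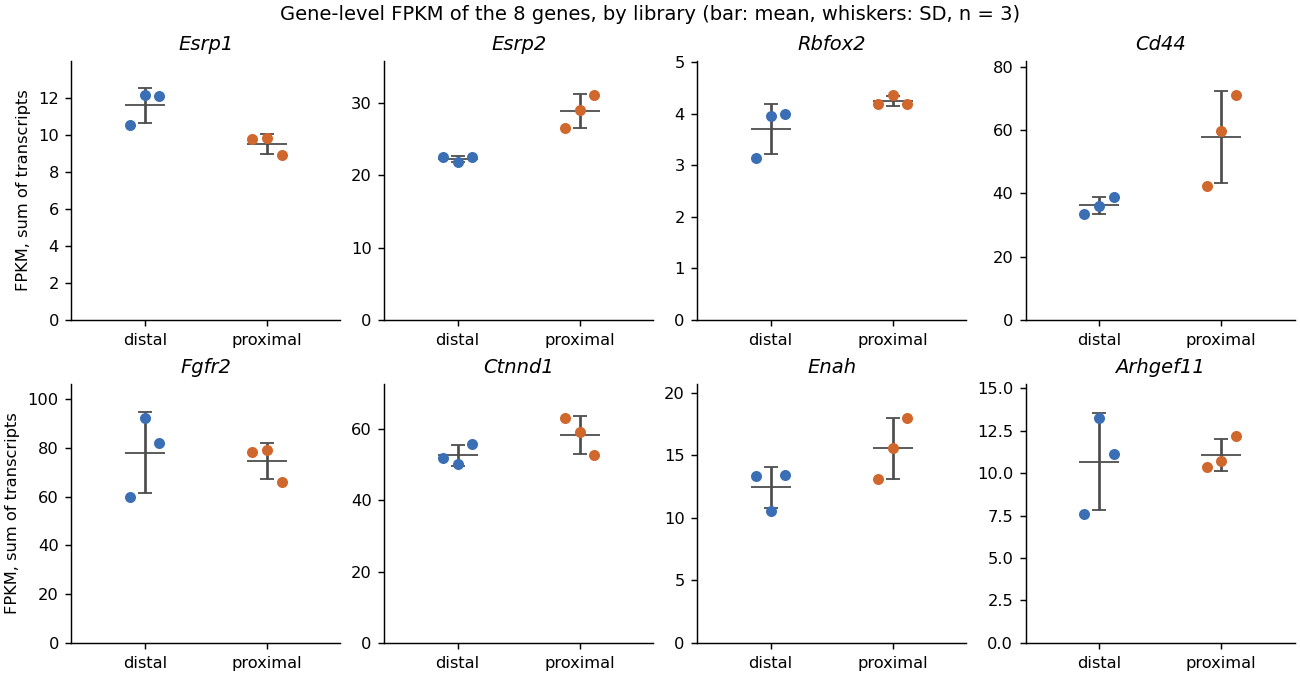
FPKM of the 8 genes, summed over their transcripts, in each library (points), with the mean and SD of the 3 distal and 3 proximal libraries. Esrp1 lies lower and Esrp2, Rbfox2 and Cd44 lie higher in all proximal than in all distal libraries, and the 4 other genes overlap.

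Esrp1 was divided among 4 models. The full model of 16 exons, with the start-codon exon, lay at 4.98, 5.18 and 4.85 FPKM in distal cells and 4.16, 4.12 and 3.54 FPKM in proximal cells. This model had no overlap between the groups, and its difference of -0.28 ± 0.11 (SE, log2(FPKM + 1)) had an adjusted p of 0.262 (limma). A pair of models of 12 exons begins further downstream and lacks the start-codon exon. The one without the 12-base stretch lay at 4.32, 4.49 and 3.46 FPKM in distal and 4.35, 4.48 and 3.15 FPKM in proximal cells. The one with it lay at 1.23, 2.501 and 3.79 FPKM in distal and 1.26, 1.25 and 1.35 FPKM in proximal cells, so that only distal libraries 2 and 3 stood above the rest. The 4th model was at 0.860 FPKM in proximal library 3 and listed at 0 elsewhere. It has the same ends as the full model, at 3966 against 3969 bases, but fits no path through the reference exons. The share with the start-codon exon therefore leaves it out, although it took 9.66% of Esrp1 in proximal library 3. The share of the model with the start-codon exon was 43.3 ± 3.7% in distal and 41.4 ± 1.4% in proximal cells (SD, n = 3; exact permutation p = 0.4). Esrp2 rested on 1 model of 15 exons (chr8:106131183-106136974, minus strand), and its other model was listed at 0 throughout.

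Rbfox2 was low in both groups. It lay at 3.14, 3.94 and 4.00 FPKM in distal cells and at 4.18, 4.36 and 4.19 FPKM in proximal cells, a difference of 0.17 ± 0.13 (SE, log2(FPKM + 1); limma, adjusted p = 0.482). Its transcripts begin at 2 places, an upstream start and a start further downstream. The models from the downstream start summed to 1.22, 1.76 and 1.597 FPKM in distal and 2.99, 2.88 and 2.18 FPKM in proximal cells, with no overlap. Those from the upstream start summed to 1.91, 2.19 and 2.40 FPKM in distal and 1.18, 1.49 and 2.01 FPKM in proximal cells, which do overlap. As a share of the gene, the upstream start took 61.0%, 55.5% and 60.1% in distal and 28.3%, 34.1% and 48.0% in proximal cells. All proximal shares were below all distal ones (exact permutation p = 0.1). Adjusted over the 12 class shares tested, this p was 0.4.

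The most abundant downstream-start model of Rbfox2 had a difference of 0.53 ± 0.20 (SE, log2(FPKM + 1)), and the most abundant upstream-start model -0.18 ± 0.20, with adjusted p of 0.233 and 0.678 (limma). Rbfox2 has alternative exons of 40 and 43 bases. The length of each model above 0 fits a path with either exon, so their use could not be read.

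Cd44 had the largest gene-level difference of the 8. It lay at 33.5, 36.0 and 38.9 FPKM in distal cells and 42.4, 59.7 and 71.1 FPKM in proximal cells. Every proximal library was above every distal one, and the proximal libraries were widely spread. The difference was 0.63 ± 0.18 (SE, log2(FPKM + 1)), with an adjusted p of 0.0788 (limma). Leaving out proximal library 1, the lowest of its group, gave an adjusted p of 0.0104. Leaving out any other library gave 0.124 to 0.239.

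The standard form of Cd44, with 9 exons and no variable exon, was listed at 0 in all 3 distal libraries. In the proximal libraries it lay at 10.1, 13.9 and 12.5 FPKM, with deposited intervals of 9.23 to 11.05, 12.8 to 15.1 and 11.5 to 13.5 FPKM. The upper ends of the deposited distal intervals were 0.0161 to 0.0206 FPKM. No fold change is given against a group at 0. It was the only one of the 23 member transcripts tested that was called at transcript level (limma, adjusted p = 0.000418), beside 3.06% of 13878 transcripts (2.16% higher and 0.894% lower in proximal cells). The 3 distal values were identical, so they added no spread to the fit. With 0 in every distal library, the model reached the mean of 1 FPKM needed for testing only through the proximal group. Of the 13878 transcripts, 36 (0.259%) were listed at 0 in all distal and above 0 in all proximal libraries, and 20 (0.144%) showed the reverse.

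The standard form took 23.9%, 23.3% and 17.5% of Cd44 in the proximal libraries. In a test of isoform use, which compares a transcript with the rest of its gene, it was again the only one called of 20 member transcripts (limma, adjusted p = 0.00113), beside 1.28% of 6091 (0.69% higher and 0.591% lower). It was also the only one at an unadjusted p under 0.05, beside 5.88%. Here too it entered the test, which needs a mean share of at least 5%, only through the proximal group. The call held without each of the 6 libraries in turn, at an adjusted p of 0.00569 to 0.0123. It was lost under 2 of 13 alternatives, which were a variance trend in the fit, at 0.0731, and a block for the library number. The exact permutation test of the share itself gave p = 0.1, which is 0.4 adjusted over the 12 class shares.

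The variable forms were led in each library by the model with v4 to v10. It lay at 15.9, 19.96 and 18.9 FPKM in distal and 23.8, 30.8 and 23.4 FPKM in proximal cells, with no overlap. Its difference of 0.48 ± 0.15 (SE, log2(FPKM + 1)) had an adjusted p of 0.161 (limma). As a share of Cd44 it took 50.5 ± 4.3% in distal and 46.9 ± 12% in proximal cells (SD, n = 3; exact permutation p = 0.9).

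The other variable models were present in some libraries and listed at 0 in others. The v6 to v10 model lay at 4.18, 7.89 and 11.1 FPKM in distal cells and 8.43, 0 and 12.9 FPKM in proximal cells. The v8 to v10 model lay at 4.75, 0 and 8.96 FPKM in distal and 0, 14.99 and 11.2 FPKM in proximal cells. The v9 to v10 model lay at 4.49, 8.13 and 0 FPKM in distal and 0, 0 and 11.02 FPKM in proximal cells, and a model with all of v1 to v10 was at 4.16 FPKM in distal library 1 alone. All of these models share both ends, and carry the status OK in each library. Within each group, distal as well as proximal, no 2 libraries had values above 0 in the same set of variable models.

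Because a listed 0 may be a failed split among near-identical models, sums over models were compared as well, a grouping chosen after the values were seen. The variable models together summed to 33.5, 36.0 and 38.9 FPKM in distal and 32.2, 45.8 and 58.6 FPKM in proximal cells, which overlap. The models without v4 to v7 (standard, v8 to v10 and v9 to v10) summed to 9.24, 8.13 and 8.96 FPKM in distal cells and 10.1, 28.9 and 34.7 FPKM in proximal cells, which do not overlap (exact permutation p = 0.1). The models with v6 and v7 summed to 24.3, 27.9 and 29.96 FPKM in distal and 32.2, 30.8 and 36.4 FPKM in proximal cells, which do not overlap either (exact permutation p = 0.1). The share of Cd44 taken by the models without v4 to v7 was 27.6%, 22.6% and 23.0% in distal and 23.9%, 48.5% and 48.9% in proximal cells (exact permutation p = 0.2). By this share proximal library 1 fell among the distal libraries, although the standard model alone set it apart from them.

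**Figure D2:**
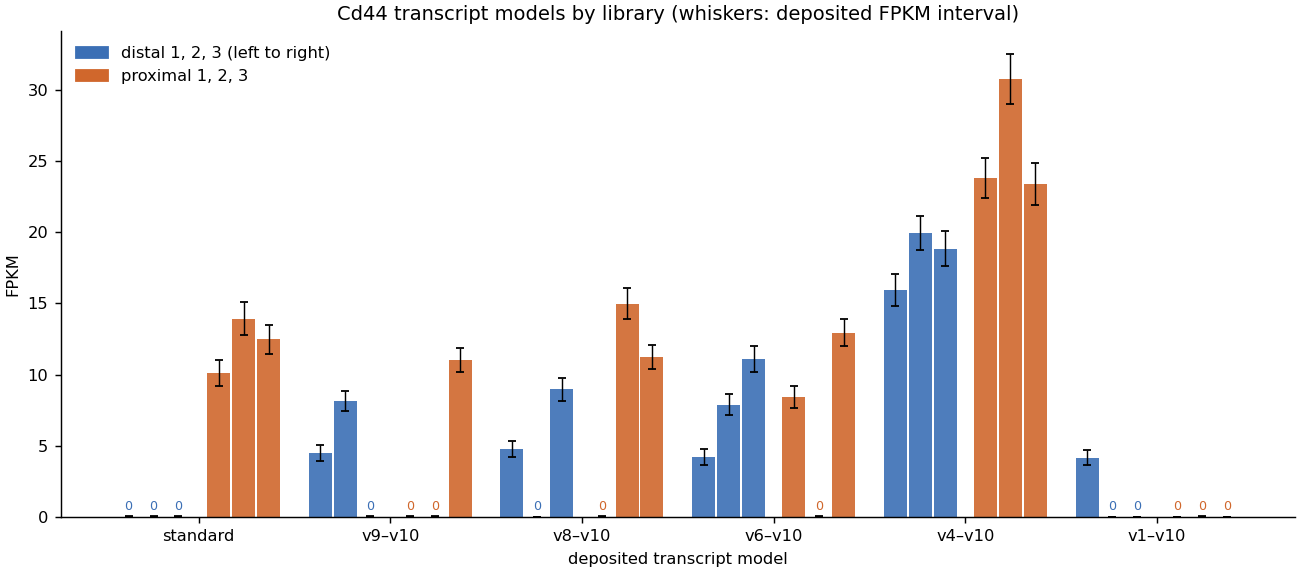
FPKM of the 6 Cd44 models that were above 0 in a library, with 3 distal and 3 proximal bars each and the deposited interval as whiskers. The standard model is at 0 in the distal libraries and between 10.1 and 13.9 in the proximal ones, while v4–v10 is present in all 6.

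Some endothelial and fibroblast markers were also called higher in proximal cells. Other endothelial, fibroblast, smooth muscle and immune markers were higher without a call, level or lower. Of 7 endothelial markers 5 could be tested and 3 rose in proximal cells (Emcn, Cdh5 and Kdr), beside 4.52% of all genes, with Emcn averaging 1.32 ± 1.4 FPKM distally and 6.13 ± 0.28 FPKM proximally (SD, n = 3). Without distal library 2 none of the 3 was called, at 0.069 for Emcn, 0.129 for Cdh5 and 0.166 for Kdr. All 3 calls were also lost with a pseudocount of 0.1, at 0.0526 to 0.0736, and with no filter on low values, at 0.0713 to 0.0837. Cdh5 and Kdr averaged 0.492 and 0.497 FPKM distally and 1.73 and 1.79 FPKM proximally. They thus reached the mean of 1 FPKM needed for testing only through the proximal group, where they are high. All 5 endothelial markers tested were higher in every proximal than in every distal library. Pecam1 and Esam, without a call, averaged 1.68 and 3.65 FPKM distally and 6.09 and 5.26 FPKM proximally. The endothelial list summed to 4.73 to 12.9 FPKM in the distal libraries and to 18.6 to 24.3 FPKM in the proximal ones. Of 10 fibroblast markers 8 were tested and 5 rose, beside the same 4.52%, among them Col3a1 from 7.83 to 16.3 FPKM. Of the 5, only Col3a1 was called in each of the 6 fits with 1 library left out. Pdgfrb was lost in 2 of these fits, Col1a1 in 4, Col1a2 in 5 and Fbln1 in 6, and the last 3 were lost with no filter as well, at 0.0736 to 0.102. Pdgfrb averaged 0.615 FPKM distally and 1.93 FPKM proximally, so it too passed the filter only through the proximal group. The fibroblast sum, most of it Dcn, ran the other way, from 771 to 814 FPKM distally and from 685 to 756 FPKM proximally. Dcn averaged 769 FPKM distally and 679 FPKM proximally, and Mfap5 1.78 and 0.721 FPKM. Both were lower in every proximal library, without a call. Of 8 immune markers only Cd52 could be tested, none was called, and Ptprc, the common leukocyte antigen, averaged 0.0194 FPKM distally and 0.0199 FPKM proximally. Their part in the Cd44 result was not tested.

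Fgfr2 was the most abundant of the 8 genes in each library but proximal 3, where Cd44 was. It lay at 59.8, 92.3 and 81.9 FPKM in distal cells and 78.3, 79.3 and 66.0 FPKM in proximal cells. The groups overlapped, and the difference was -0.047 ± 0.17 (SE, log2(FPKM + 1); limma, adjusted p = 0.901). It turned positive without distal library 2, at 0.085, and without proximal library 3, at 0.037.

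All 5 Fgfr2 models that hold exon IIIc were listed at 0 in all 6 libraries. The upper ends of their deposited intervals ran from 0.0135 to 0.132 FPKM. The models whose structure certainly holds IIIb carried 80.7%, 80.3% and 76.8% of the gene in distal and 84.3%, 86.1% and 81.9% in proximal cells. The remainder was a single model with an upstream start, whose length fits both a IIIb transcript and a transcript with neither exon. The share of certain IIIb models did not overlap between the groups (exact permutation p = 0.1, 0.4 adjusted over the 12 class shares). It falls short of the whole gene only by the ambiguous model, which may itself hold IIIb. The share therefore does not measure IIIb against IIIc.

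The IIIb models differed in the exon for the Ig I domain (267 bases), the outermost immunoglobulin domain of the receptor. The IIIb model with it lay at 18.8, 27.6 and 22.2 FPKM in distal and 28.7, 24.9 and 21.05 FPKM in proximal cells. The IIIb model without it lay at 29.4, 46.5 and 40.7 FPKM in distal and 23.96, 30.8 and 32.997 FPKM in proximal cells, so that distal libraries 2 and 3 were the highest. The last IIIb model, lacking both the Ig I exon and a 78-base exon after it, was at 13.3 and 12.6 FPKM in proximal libraries 1 and 2 and listed at 0 in the other 4. The ambiguous upstream-start model lay at 11.6, 18.2 and 19.0 FPKM in distal and 12.3, 10.99 and 11.9 FPKM in proximal cells.

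None of these Fgfr2 differences passed the test (limma). The difference was 0.12 ± 0.17 (SE, log2(FPKM + 1)) for the model with the Ig I exon and -0.39 ± 0.20 for the one without, with adjusted p of 0.757 and 0.367. For the upstream-start model it was -0.41 ± 0.19 with an adjusted p of 0.319, which became 0.0400 without distal library 1 and lay at 0.346 to 0.597 without any other library. The IIIb models without the Ig I exon, summed, took 49.8 ± 0.62% of the gene in distal and 50.8 ± 3.6% in proximal cells (SD, n = 3; exact permutation p = 0.8).

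**Figure D3:**
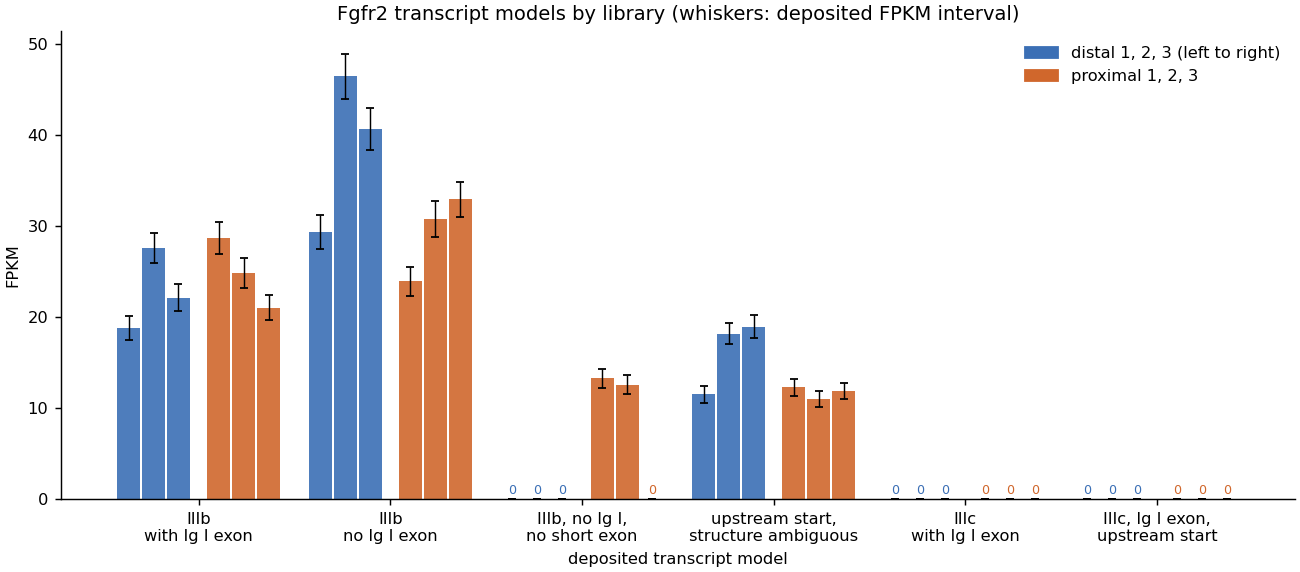
FPKM of the 4 Fgfr2 models above 0 and of 2 of the 5 IIIc models, by library, with the deposited interval as whiskers. The IIIc models are at 0 in all 6 libraries, and the IIIb model without the Ig I exon is the tallest in all distal libraries.

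Ctnnd1 encodes p120-catenin, which holds E-cadherin at the cell surface. Mesenchymal cells tend to make a longer protein from an upstream start codon, and epithelial cells a shorter one from a downstream start. The gene lay at 51.8, 50.2 and 55.9 FPKM in distal and 63.1, 59.2 and 52.7 FPKM in proximal cells, which overlap (0.14 ± 0.11, SE, log2(FPKM + 1); limma, adjusted p = 0.452). The model that skips the upstream start-codon exon and holds exon A lay at 21.96, 24.5 and 27.4 FPKM in distal and 27.6, 29.7 and 22.7 FPKM in proximal cells. The model with the upstream start-codon exon and without exon A lay at 23.7, 25.7 and 28.6 FPKM in distal and 27.4, 29.5 and 23.9 FPKM in proximal cells. Both were thus at like levels in each library.

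The other Ctnnd1 model above 0, with the upstream start, exon A and exon C, was at 6.15 FPKM in distal library 1 and at 8.15 and 6.07 FPKM in proximal libraries 1 and 3, and listed at 0 elsewhere. The share without the upstream start-codon exon was 46.7 ± 3.7% in distal and 45.6 ± 3.9% in proximal cells (SD, n = 3; exact permutation p = 1). That with exon A was 50.7 ± 3.2% and 53.8 ± 3.3% (exact permutation p = 0.2). Because the 2 main models differ in both features at once, these shares are not separate measurements of start use and of exon A.

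Enah encodes Mena, a promoter of actin filament growth, whose exon 11a marks epithelial cells. The gene lay at 13.3, 10.5 and 13.4 FPKM in distal and 13.1, 15.6 and 17.97 FPKM in proximal cells (0.30 ± 0.15, SE, log2(FPKM + 1); limma, adjusted p = 0.268). Its full-length model lay at 2.76, 3.32 and 3.74 FPKM in distal and 4.49, 4.60 and 5.34 FPKM in proximal cells. These did not overlap, and the difference of 0.45 ± 0.14 had an adjusted p of 0.175 (limma). A short model of 3 exons that stops well before exon 11a lay at 10.6, 7.20 and 9.71 FPKM in distal and 8.60, 10.99 and 12.6 FPKM in proximal cells. It made up 73.3 ± 5.5% of the gene in distal and 68.8 ± 2.7% in proximal cells (SD, n = 3; exact permutation p = 0.4). No deposited Enah model holds exon 11a, which only 1 of 16 reference transcripts carries, so its use could not be read from these values.

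Arhgef11 encodes an exchange factor that activates RhoA and is spliced differently in epithelial and mesenchymal cells. It lay at 7.62, 13.2 and 11.1 FPKM in distal and 10.4, 10.7 and 12.2 FPKM in proximal cells (0.079 ± 0.19, SE, log2(FPKM + 1); limma, adjusted p = 0.843). Distal library 1 was the lowest, and without it the difference was -0.12. A model of 9 exons that skips the late exon printed above lay at 3.60, 5.78 and 5.04 FPKM in distal and 4.75, 4.34 and 5.48 FPKM in proximal cells. The main model that holds it lay at 2.62, 4.74 and 3.94 FPKM in distal and 3.66, 3.83 and 4.10 FPKM in proximal cells. The others that hold it were at most at 2.58 FPKM.

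The skipping model took 45.4 ± 1.8% of Arhgef11 in distal and 43.8 ± 2.9% in proximal cells (SD, n = 3; exact permutation p = 0.5). It also starts far downstream of the models that hold the exon, and its splice is not in the reference annotation, so its share reads the start and the exon together. With only the transcripts that the general matching assigned to Arhgef11, the gene-level difference was 0.34 with an adjusted p of 0.473 (limma). This matching leaves out the skipping model. It also leaves out a model that holds the late exon, above 0 only in distal libraries 1 and 2, at 1.40 and 1.23 FPKM. What each added to the difference was not separated.

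**Figure D4:**
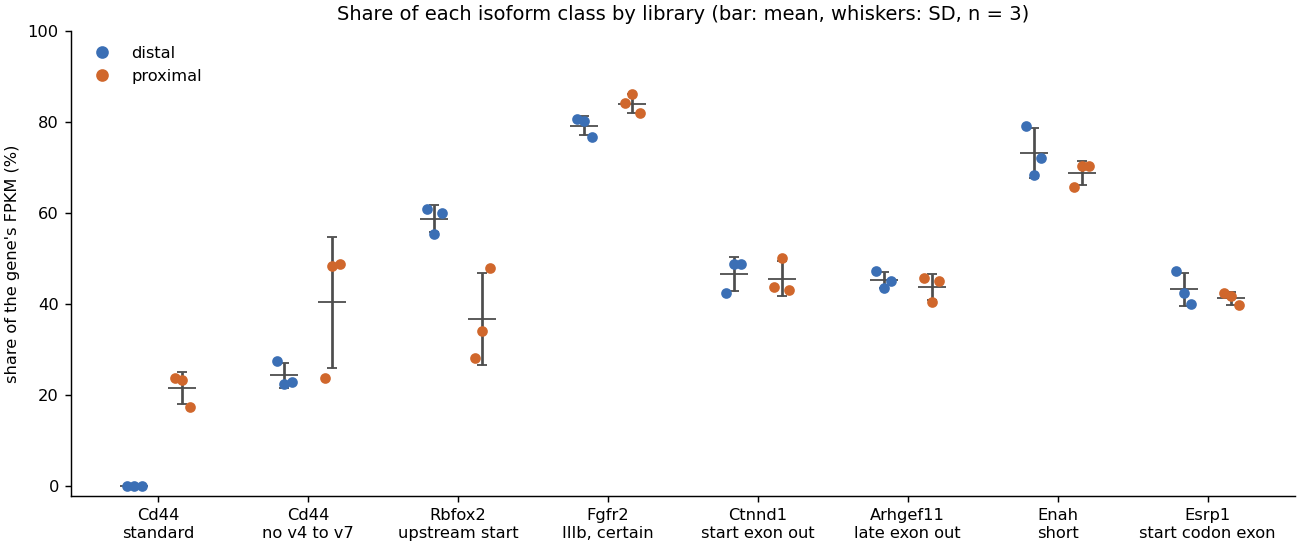
Share of a gene's FPKM taken by each isoform class, in percent, for each library, with the mean and SD of the 3 distal and 3 proximal libraries. The Cd44 standard, Rbfox2 upstream-start and certain Fgfr2 IIIb shares do not overlap between the groups, and the Cd44 models without v4 to v7 do.

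Across the 12 class shares, 3 did not overlap between the groups, and among all 6091 transcripts tested for isoform use the shares of 12.5% did not. With 3 libraries a group, an exact test of a single share cannot go below p = 0.1. The 19 member transcripts not called for isoform use had adjusted p of 0.748 to 1.00 (limma).

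Other splicing regulators were mostly level. Of 41 listed, 35 could be tested, 2 rose in proximal cells and none fell, beside 4.52% and 2.5% of all genes, and their median difference was 0.0026 on the log2(FPKM + 1) scale. The genes that rose were low. Khdrbs3, a relative of Sam68, lay at 2.53, 3.05 and 2.99 FPKM in distal and 4.70, 5.47 and 5.08 FPKM in proximal cells (limma, adjusted p = 0.0226). Celf2, which binds GU-rich RNA, lay at 1.34, 1.33 and 1.28 FPKM in distal and 2.27, 2.23 and 2.56 FPKM in proximal cells (adjusted p = 0.0481). Khdrbs3 lost its call without library 2 or 3 of either group, at 0.0746 to 0.119, and Celf2 without any library but distal 1, at 0.0611 to 0.164. With no filter on low values both calls were lost, at 0.0562 and 0.0839, and Celf2 was lost with a pseudocount of 0.1, at 0.055.

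Transcription factors known to act on the Esrp genes or on the epithelial state were also listed. Of 17, 12 could be tested, none rose and 1 fell, beside 4.52% higher and 2.5% lower over all genes. Grhl1, a grainyhead factor of epithelia, lay at 25.4, 28.6 and 26.3 FPKM in distal and 19.9, 17.5 and 15.95 FPKM in proximal cells (-0.57 ± 0.11, SE, log2(FPKM + 1); limma, adjusted p = 0.0269). Its call was lost without library 2 or 3 of either group, at 0.0924 to 0.131. Its relative Grhl2 averaged 8.77 ± 3.4 FPKM distally and 4.80 ± 0.18 FPKM proximally (SD, n = 3), without a call. Zeb1, a repressor of the Esrp genes, averaged 1.82 FPKM distally and 1.93 FPKM proximally. Zeb2 was below 1 FPKM in both and was not tested. It averaged 0.161 FPKM distally and 0.601 FPKM proximally, and every proximal library was above every distal one.

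Of 33 other genes known to carry Esrp-regulated exons, all were tested, 3 rose and 1 fell at gene level, beside 4.52% and 2.5% of all genes. These counts say nothing of their exons. Golim4, a Golgi protein, rose from 15.7 ± 0.25 to 25.3 ± 0.43 FPKM (SD, n = 3; limma, adjusted p = 0.00626). Osbpl3, a lipid-transfer protein, rose from 0.707 ± 0.17 to 3.62 ± 1.4 FPKM (adjusted p = 0.0101). It was below 1 FPKM in every distal library, so it passed the filter on low values only through the proximal group. Slk, a kinase whose exon is a known Esrp target, rose from 24.9 ± 1.5 to 35.3 ± 1.1 FPKM (adjusted p = 0.0244). Baiap2, a membrane-bending adaptor, fell from 74.6 ± 9.4 to 42.8 ± 12 FPKM (adjusted p = 0.0464). The calls of Golim4 and Osbpl3 held without each library in turn. Those of Slk and Baiap2 were lost without library 2 or 3 of either group, at 0.065 to 0.127 and 0.133 to 0.18. Baiap2 was also lost with no filter on low values, at 0.0973, and without a variance trend, at 0.0579.

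Of 30 ligands and partners of the targets, 21 could be tested and 1 rose, near the 4.52% of all genes called higher. Has3, which makes hyaluronan, the ligand of Cd44, lay at 6.07, 4.43 and 5.30 FPKM in distal and 10.3, 9.24 and 10.8 FPKM in proximal cells (limma, adjusted p = 0.0117). It lost its call without distal library 2, at 0.0548, and without proximal library 3, at 0.0513. Fgf7 and Fgf10, which bind the IIIb receptor, were below 1 FPKM on average in both groups. Fgf1, which binds both receptor forms, averaged 76.2 ± 4.7 FPKM distally and 74.6 ± 4.8 FPKM proximally (SD, n = 3), without a call. Cdh1, the E-cadherin that p120-catenin binds, averaged 644 FPKM distally and 734 FPKM proximally, without a call.

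**Figure D5:**
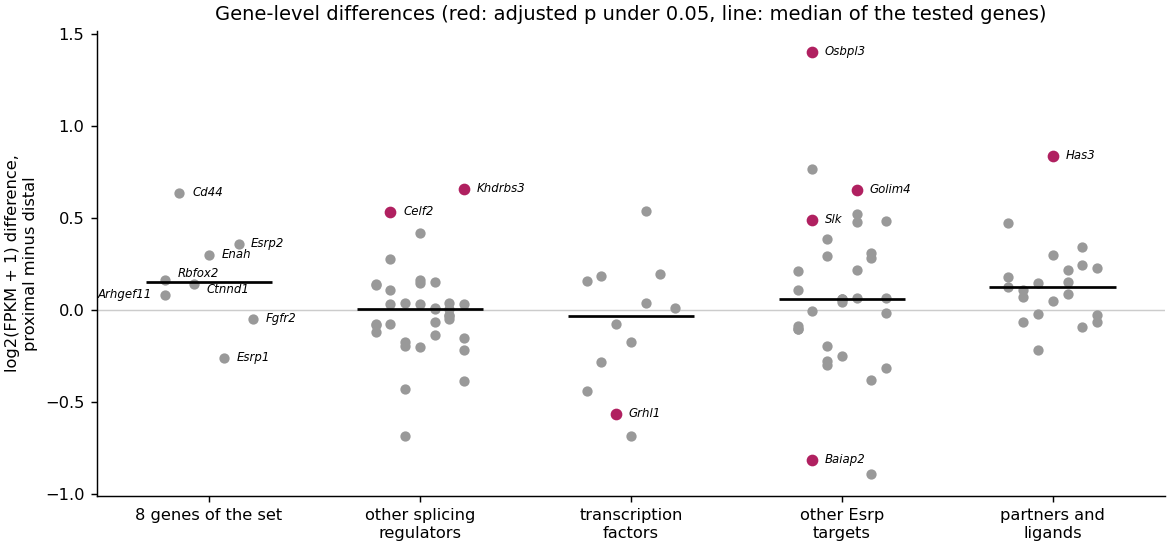
Gene-level difference, proximal minus distal, on the log2(FPKM + 1) scale for the tested genes of 5 lists, with called genes in red and the list medians as lines. None of the 8 genes is called, and the called genes of the other lists are Khdrbs3, Celf2, Grhl1, Golim4, Osbpl3, Slk, Baiap2 and Has3.

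The genes most like the paralogues over the 6 libraries were found by the root mean square difference of centred log2(FPKM + 1) values among 6680 genes of at least 5 FPKM. For Esrp1 they were Apba3, Ripk4 and Pank3, at 0.028, 0.035 and 0.038. For Esrp2 they were Stambpl1, Jpt2 and Kctd10, at 0.024, 0.029 and 0.032. Ripk4, a kinase of epithelial differentiation, lay at 69.5, 78.7 and 79.2 FPKM in distal and 65.9, 61.9 and 60.9 FPKM in proximal cells.

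The label of basal cells was checked against markers. Krt5, Krt14, Krt15, Krt17 and Trp63 were all present, with Krt5 averaging 380 ± 51 FPKM distally and 618 ± 49 FPKM proximally (SD, n = 3). Luminal keratins were present too, with Krt8 averaging 546 FPKM distally and 598 FPKM proximally. Of 8 basal markers 4 rose (Krt5, Krt15, Col17a1 and Lamb3) and none fell, beside 4.52% and 2.5% of all genes, and all 4 calls were lost without library 2 or 3 of either group, at 0.0599 to 0.142. The 4 not called were mixed. Krt14 averaged 2716 FPKM distally and 2185 FPKM proximally, and Krt17 2370 and 1828 FPKM, each lower in every proximal library. Trp63 averaged 58.5 and 34.2 FPKM and Itgb4 65.2 and 76.5 FPKM, both with overlap. Of 11 luminal markers tested 4 rose and 2 fell. Those that rose (Psca, Tspan8, Krt19 and Cldn3) were called without each library in turn, and the call of Hoxb13, which fell, was lost without library 2 or 3 of either group, at 0.0875 to 0.103. Psca averaged below 1 FPKM distally, so it passed the filter on low values only through the proximal group. The luminal sum ran from 2286 to 3107 FPKM distally and from 3321 to 3569 FPKM proximally. Of 5 smooth muscle markers tested none was called, and the most abundant, Smtn, averaged 195 FPKM distally and 201 FPKM proximally. Coverage per FPKM, which scales with sequencing depth, ranged from 4.45 to 5.71 over the libraries, or 1.28-fold.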

How the data were processed

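Per the submitters' processing notes, the authors used bcl2fastq 1.8.3, TopHat and Cufflinks with mm10. Per the labels' protocols, dissociated cells were stained and sorted, and cDNA was primed with random and oligo(dT) primers. The growth protocol describes cultured stromal cells. The antibodies, and whether basal cells were cultured, are not given in the sources used here. The deposited tables hold FPKM with an interval for each transcript, made by the authors. The deposited coverage signal is not scaled to depth, and fragment counts were not used here, so precision rests on the deposited intervals and the spread of libraries.

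Transcripts were matched to GENCODE M21 by position and length: 53323 of 63241, holding 93.85% of the FPKM, were assigned to 25264 genes. Only 16 of the 57 members equal a reference transcript in span and length within 2%, so exons were read as the path through reference exons with the same ends and spliced length, and classes rest on these paths. End exons could extend by up to 1000 bases. Where 2 paths fit, the model is called ambiguous.

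Differences were tested with limma 3.58.1 in R 4.3.3 on log2(FPKM + 1), keeping genes or transcripts that averaged 1 FPKM or more. Isoform use was tested on log2((transcript + 0.5)/(rest + 0.5)), for genes of at least 5 FPKM and shares of 5% to 95%. P-values were adjusted by Benjamini-Hochberg over all features. Class shares were compared by two-sided exact permutation tests. The fits were tested on simulated data. All 8 genes are described, with models listed at 0 throughout mostly given as counts. From each list, called genes (at most 6) or else the most abundant gene are named, and the few others were picked with values known. The 8 genes and the lists were chosen with earlier results of these data known. The sequence of 1 exon and the values of 1 marker gene are not reported here.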

Additional observations from a re-analysis of the deposited data

How the results depend on the processing

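Of the 8 genes, none passed the gene-level test in the main analysis. Esrp2 and Cd44 passed without both libraries numbered 1 (adjusted p = 0.0229 and 0.0077, limma). The replicate numbers are not known to pair the libraries. Deviations of same-numbered libraries correlated at 0.38, 0.045 and 0.29 across genes, and libraries numbered 2 did not correlate best with each other. With a replicate block the adjusted p was 0.0362 for Esrp2, 0.0178 for Cd44 and 0.0507 for the isoform use of the Cd44 standard model, and the calls at gene level were 881 higher and 736 lower, against 464 and 256. The block left 0 isoform-use calls higher and 0 lower, against 42 and 36 (limma; at an unadjusted p under 0.05, 319 with the block and 358 without).

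Directions reversed, without a call, as follows. Without both libraries numbered 1, Arhgef11 was at -0.082 and the Fgfr2 model with the Ig I exon at -0.11. With only models of equal span and length, Cd44 rested on fewer models and was at -0.98. Leaving out 1 library gave -0.12 to 0.24 for Arhgef11, -0.22 to 0.085 for Fgfr2, -0.0038 to 0.26 for that Fgfr2 model and -0.49 to 0.19 for the isoform use of Cd44 v4 to v10.

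Counts of calls moved by over 1.5 times as follows, and the cause was not tested. The ranges for leaving out 1 library run over all such fits, including some that moved a count by less. Leaving out 1 library gave 202 to 533 genes higher and 46 to 622 lower, 101 to 293 transcripts higher and 19 to 272 lower, and 52 to 74 isoform-use calls higher and 40 to 63 lower. Without both libraries numbered 1 there were 907 genes higher and 1385 lower, 500 transcripts lower, and 116 and 106 isoform-use calls. With no filter on low values, 137 genes and 79 transcripts were lower. With a mean of at least 10 FPKM, 203 genes were higher and 130 lower, and 158 transcripts were higher. A variance trend left 9 and 6 isoform-use calls. Models of equal span and length left 260 genes higher and 114 lower, and 19 and 19 isoform-use calls. Class shares were not run on such models, which number 16 of the 57 members and hold neither the standard nor the v4 to v10 model of Cd44. Summing the standard, v8 to v10 and v9 to v10 models of Cd44, an alternative chosen after seeing the data, gave a share difference of 16.02 percentage points against 21.6. Median ratio scaling changed no direction and no call of the 8 genes. Coverage in place of FPKM, and leaving out models under 500 bases, moved no class share beyond its spread. Neither could have done so, because coverage within a library is close to a fixed multiple of FPKM and no member model is under 500 bases.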
